A study of Mus musculus with 32 samples.

Results

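Toll-like receptor (TLR) signaling was followed through 10 genes, taken by name from 2 tables of raw counts of a stroke experiment: the plasma membrane receptors Tlr1, Tlr2, Tlr4 and Tlr6, the co-receptor Cd14, the endosomal receptors Tlr3, Tlr7, Tlr9 and Tlr13, and the adaptor Myd88. All 10 members were found among the 33280 genes of the tables, and all 10 passed the filter on low counts in whole tissue and in sorted cells. Both sexes of wild-type C57BL/6JCrl mice, 10 ± 3 weeks old at the first gavage, were gavaged over 7 days with vehicle (CTL, 4 mice: A2, A3, A4 and B1) or with 200 mg/kg BLZ945 (4 mice: C2, C3, C4 and D1). BLZ945 inhibits CSF1R, the receptor that microglia and CNS-associated macrophages (CAMs) need to survive. After a further 8 weeks of repopulation, every mouse received a thromboembolic stroke by thrombin injection into the middle cerebral artery, and the ipsilateral (lesioned) and contralateral hemispheres were taken 1 day afterwards. From each hemisphere, bulk RNA-seq was made of whole tissue (16 libraries) and of sdCAMs (16 libraries), the CAMs of the leptomeninges and perivascular spaces, sorted from brain without choroid plexus as cells positive for CD206, CD45 and CD11b and negative for CD11c, Ly6G and Ly6C. All groups underwent stroke and no unoperated mice were analysed here, so the contralateral hemisphere of an operated mouse is the reference throughout. The artery was reached through a craniotomy with removal of the dura, and no sham-operated mice were analysed either. Effects of surgery and of ischemia therefore cannot be told apart between the hemispheres. In BLZ945 mice the labels do not separate sdCAMs that survived depletion from those that entered afterwards.

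TLRs are pattern recognition receptors that bind molecules of microbes and of damaged cells. TLR2 pairs with TLR1 or TLR6 to bind lipoproteins, and TLR4 binds lipopolysaccharide handed over by CD14. TLR3 binds double-stranded RNA, TLR7 single-stranded RNA, TLR9 CpG DNA and TLR13 a stretch of bacterial ribosomal RNA, all inside endolysosomes. Every one of these receptors except TLR3 signals through MYD88 to NF-κB, and in the brain these genes are known mainly from microglia and other macrophages.

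Depth was between 9288717 and 12781505 counts in tissue and between 7397393 and 11081409 in the 14 sdCAM libraries used. The ipsilateral sdCAM libraries of A3 and C2, degraded according to the labels, were left out. For A3 tissue the names of the table's columns and the sample titles give opposite hemispheres. The titles were followed, and results that rest on this mouse are given with it, without it and with its hemispheres exchanged. Values are counts scaled to the TMM-adjusted library size (CPM), and 3 counts correspond to 0.235 to 0.323 CPM in tissue and 0.271 to 0.406 CPM in sdCAMs, which covers counting error only.

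The sdCAM libraries held transcripts of other cells, and the amounts differed between hemispheres. The summed level of 18 macrophage genes was 15314 to 40814 CPM in the 8 contralateral and 41495 to 52986 CPM in the 6 ipsilateral sdCAM libraries, without overlap. As a share of each library, the same genes took 1.6% to 4.14% contralaterally and 3.88% to 4.94% ipsilaterally, and these ranges overlap. Border macrophage markers (12 genes, all at a mean of at least 1 CPM) summed to 1808 to 7187 CPM contralaterally and 5244 to 11093 CPM ipsilaterally. Endothelial markers (7 genes) summed to 911 to 2790.4 CPM contralaterally against 57.4 to 198 CPM ipsilaterally, and oligodendrocyte markers (6 genes) to 668 to 6096 CPM against 225 to 817 CPM. Choroid plexus epithelial markers (5 genes) spanned 24.5 to 37565 CPM contralaterally and 0.502 to 1512 CPM ipsilaterally although choroid plexus had been removed. Microglial markers (9 genes measured) reached 8139 to 21962 CPM contralaterally and 11883 to 31989 CPM ipsilaterally, and their part in the members' levels was not tested. In a bulk sample, fewer cells of a type and less RNA per cell cannot be told apart.

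**Figure D1:**
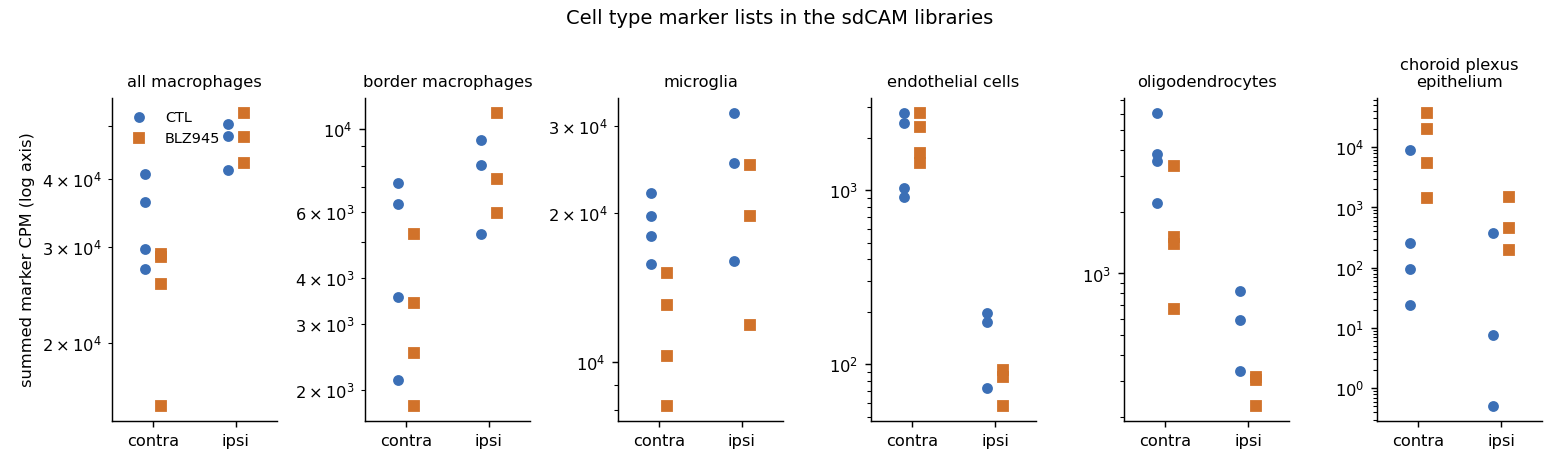
Summed CPM of 6 marker lists (log axis) in the 14 sdCAM libraries by hemisphere, with CTL as circles and BLZ945 as squares. In TMM-scaled CPM, macrophage genes were higher and endothelial genes lower in every ipsilateral library than in any contralateral one. As shares of each library, the ranges of the macrophage genes overlap.

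Per kilobase of exon, Cd14 had the highest level of the members in contralateral sdCAMs, 702 ± 437 CPM per kb (SD, n = 8). Tlr2 followed with 86.3 ± 45.6, Tlr13 with 65.2 ± 18.9, Tlr7 with 59.9 ± 20.5 and Myd88 with 42.9 ± 9.29 CPM per kb. Tlr4 (22.3 ± 7.85), Tlr1 (14.6 ± 4.5), Tlr3 (11.7 ± 2.56) and Tlr6 (6.03 ± 2.1 CPM per kb) formed the lower part of the order, and Tlr9 was lowest at 0.581 ± 0.487 CPM per kb, with 3 to 58 counts per library. The neighbors Tlr2 and Tlr13, Tlr13 and Tlr7, Tlr7 and Myd88, and Tlr1 and Tlr3 did not differ beyond the spread of their within-library differences (exact two-sided sign-flip tests, adjusted p = 0.219 to 0.307 over 36 neighbor tests). Each of the other steps of this order held in all 8 libraries (adjusted p = 0.0312, exact test).

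In contralateral tissue the order was another one. Tlr3 was first with 2.64 ± 0.484 CPM per kb, ahead of Myd88 with 2.17 ± 0.564 and Cd14 with 1.48 ± 0.29 CPM per kb (SD, n = 8). Tlr7 (0.971 ± 0.254), Tlr9 (0.721 ± 0.267), Tlr13 (0.716 ± 0.291) and Tlr2 (0.608 ± 0.331 CPM per kb) came next, and Tlr4 (0.233 ± 0.0937), Tlr1 (0.151 ± 0.0589) and Tlr6 (0.0684 ± 0.0378 CPM per kb) were lowest. Of the 9 steps, only that from Cd14 to Tlr7 passed the exact test after adjustment (adjusted p = 0.0312). In ipsilateral tissue Cd14 stood first with 11.2 ± 6.29 CPM per kb, above Myd88 (3.93 ± 0.547 CPM per kb) in 8 of 8 libraries (adjusted p = 0.0312, exact test). In ipsilateral sdCAMs the order of the members was the same as contralaterally, with Cd14 at 1154 ± 492, Tlr2 at 183 ± 44.2 and Tlr13 at 161 ± 9.59 CPM per kb (SD, n = 6), where 6 libraries allow no exact p below 0.0312.

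**Figure D2:**
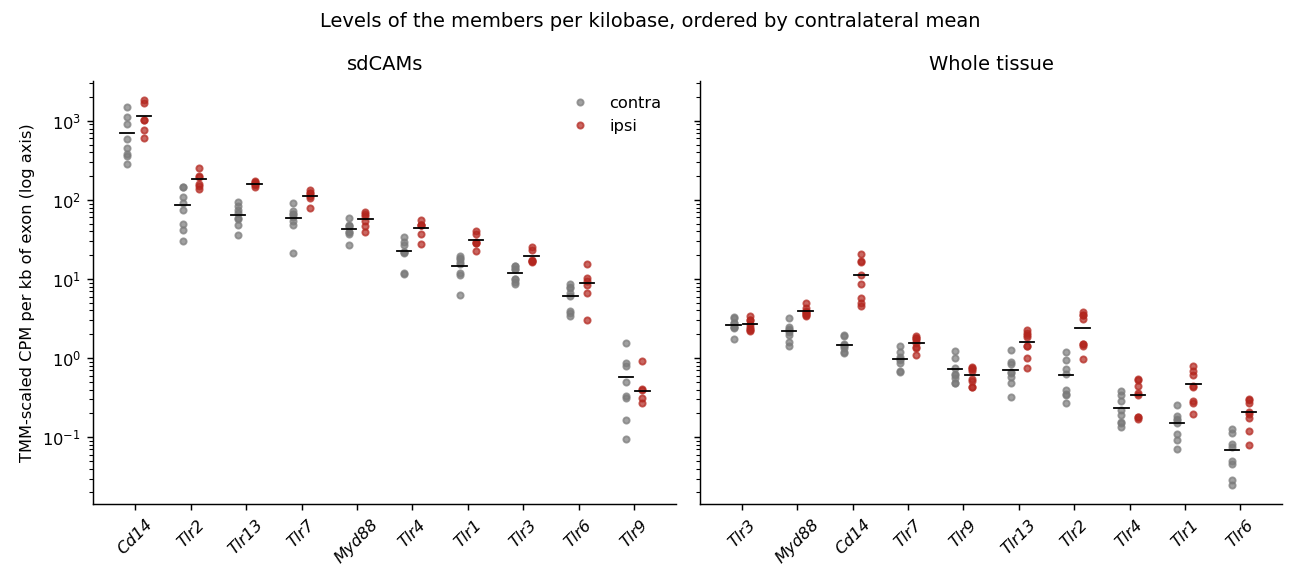
TMM-scaled CPM per kilobase of exon (log axis) of the 10 members in sdCAMs and whole tissue, with 1 point per library, gray for contralateral, red for ipsilateral and bars for means, ordered by the contralateral mean of each panel. Cd14 leads in sdCAMs and Tlr3 in contralateral tissue; the ipsilateral sdCAM library of A2 with 0 counts of Tlr9 cannot be shown on a log axis but enters the mean.

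Tlr1 and Tlr6 share stretches in which a read of 50 bases cannot tell them apart. They lie side by side on the minus strand of chromosome 5, and 15.4% of the 50-base words of Tlr1 transcripts and 12.3% of those of Tlr6 occur elsewhere among the annotated transcripts, nearly all in the other gene (454 words shared). The longest identical run of their coding sequences has 229 bases. It lies in the last exon of each gene, at positions 1468 to 1696 of the 2388 coding bases of Tlr1 (chr5:64925537-64925765, GRCm38) and at 1507 to 1735 of the 2421 of Tlr6 (chr5:64953828-64954056), and is printed because a read of 50 bases inside it cannot be given to either gene.
Tlr1 and Tlr6: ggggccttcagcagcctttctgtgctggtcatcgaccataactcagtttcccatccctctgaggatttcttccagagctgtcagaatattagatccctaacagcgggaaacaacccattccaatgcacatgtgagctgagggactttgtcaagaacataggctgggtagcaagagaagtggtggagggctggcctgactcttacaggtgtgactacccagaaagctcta
The values of Tlr1 and Tlr6 are uncertain to that extent. Tlr3 shares 5.3% and Myd88 7.42% of its words with a gene on the opposite strand (Gm45542 and Acaa1a), and the library kit does not mark strand. Acaa1a, a peroxisomal thiolase, had log2 changes between hemispheres of 0.03 ± 0.05 in tissue (edgeR, adjusted p = 0.883) and 0.05 ± 0.18 in sdCAMs (adjusted p = 0.935). Tlr2, Tlr7, Tlr9, Tlr13 and Cd14 shared no word with another transcript, and Tlr4 0.216%.

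In the contralateral hemisphere, 9 of 10 members were higher in sdCAMs than in tissue. In this comparison 33.2% of the 19389 genes tested were called higher and 39.4% lower by edgeR's quasi-likelihood test (adjusted p under 0.05). The log2 difference was 8.73 ± 0.48 (SE) for Cd14, 7.01 ± 0.40 for Tlr2, 6.49 ± 0.30 for Tlr1 and 2.04 ± 0.16 for Tlr3, with adjusted p between 2.13e-17 and 7.03e-12 over the 9 called members. Tlr9 did not pass, with a difference of -0.42 ± 0.53 (adjusted p = 0.477). The median of the members was 6.34 on the log2 scale, that of all genes tested -0.15. In the ipsilateral hemisphere the same members passed, against 27.8% of genes called higher and 46.3% lower, and Cd14 had a difference of 6.52 ± 0.43. Scaled to the sum of the 18 macrophage genes instead, 5 members were higher in contralateral sdCAMs (Cd14 by 3.14, Tlr2 by 1.38, Tlr1 by 0.92, Tlr4 by 0.88 and Tlr13 by 0.85 on the log2 scale) and Tlr3 (-3.49), Myd88 (-1.36) and Tlr9 (-5.94) were lower. Ipsilaterally, this scaling left Tlr4 (0.89) and Tlr13 (0.55) higher and Tlr3, Myd88 and Tlr9 lower. The shares of genes called above are those of TMM scaling. Those under macrophage scaling are not given here, so these counts cannot be set against all genes. Input amount and amplification differed between the compartments and cannot be told apart from them.

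At 1 day after stroke, 7 of 10 members were higher in the ipsilateral than in the contralateral tissue when CTL and BLZ945 mice were averaged, and none was lower. Cd14 rose most, 7.47-fold, followed by Tlr2 (3.84-fold), Tlr1 (3.03-fold), Tlr6 (2.93-fold), Tlr13 (2.26-fold), Myd88 (1.8-fold) and Tlr7 (1.62-fold). Of the 18968 genes tested, 2.53% were called higher and 0.517% lower in this average. The median log2 change was 1.01 over the members and -0.01 over all genes. Tlr4, Tlr3 and Tlr9 did not pass the test. With A3 left out, Cd14, Tlr2, Tlr1 and Myd88 still passed, whereas Tlr6 (adjusted p = 0.159), Tlr7 (0.0669) and Tlr13 (0.0574) no longer did, and with the hemispheres of A3 exchanged no member passed (lowest adjusted p = 0.133, for Tlr2), unless the mouse was a block as well, where Tlr2 did (1.48 ± 0.35, adjusted p = 0.0477). In the libraries of A3, the one titled ipsilateral held 19.4 CPM of Cd14 and the one titled contralateral 2.46 CPM.

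**Figure D3:**
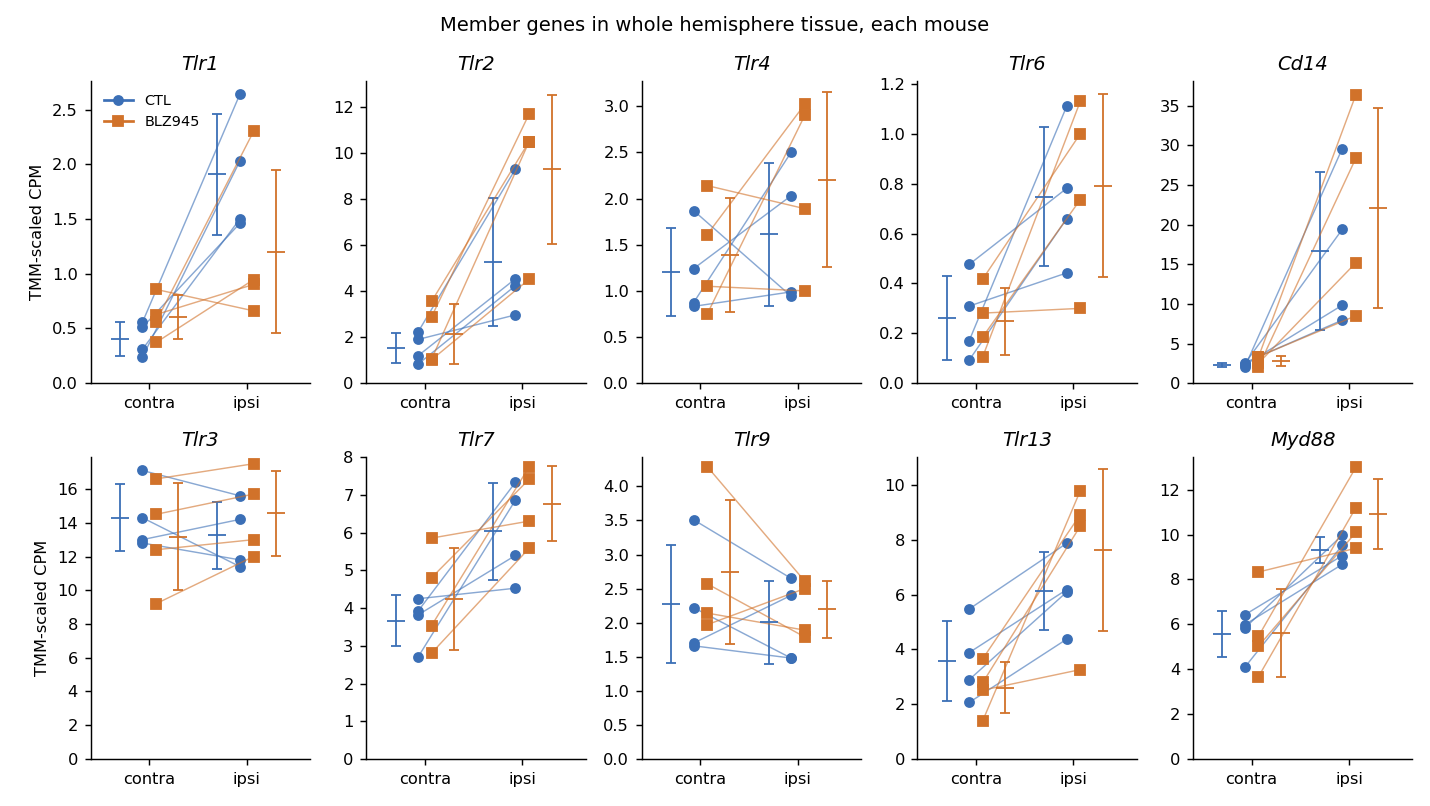
TMM-scaled CPM of each member in contralateral (contra) and ipsilateral (ipsi) whole tissue, with 1 point per library, a line per mouse and mean ± SD at the side (CTL, blue circles, n = 4; BLZ945, orange squares, n = 4). Cd14 and Myd88 are higher in all 8 ipsilateral libraries than in any contralateral one, while Tlr3 stays between 9.2 and 17.5 CPM.

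Among the plasma membrane receptors, Tlr2 was measured at 2.97, 4.54, 4.24 and 9.31 CPM in the ipsilateral tissue of A2, A3, A4 and B1 and at 1.9, 1.19, 0.825 and 2.22 CPM contralaterally. In BLZ945 mice it reached 11.7, 10.5, 4.52 and 10.5 CPM ipsilaterally (C2, C3, C4 and D1) against 2.89, 1.05, 1.02 and 3.56 CPM. All 8 mice were higher on the lesioned side, although the ipsilateral value of A2 lay below the contralateral value of D1. The averaged log2 change of Tlr2 was 1.94 ± 0.32 (edgeR, adjusted p = 0.00162) and was called without any 1 mouse.

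Tlr1, the first of the TLR2 partners, was measured at 2.03, 1.46, 1.5 and 2.64 CPM in the ipsilateral tissue of CTL mice against 0.238, 0.51, 0.309 and 0.555 CPM, without overlap. In BLZ945 mice it was 0.661, 0.902, 0.946 and 2.3 CPM against 0.857, 0.627, 0.372 and 0.562 CPM, and C2 was lower on the lesioned side. These levels rest on 3 to 32 counts per library, and 2 contralateral libraries were at or below 3 counts. The averaged log2 change was 1.60 ± 0.31 (adjusted p = 0.00635) and was called without any 1 mouse.

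Tlr6, the other partner, was close to the detection limit, with 1 to 6 counts in contralateral and 3 to 13 in ipsilateral libraries. It was measured at 0.255 ± 0.141 CPM contralaterally and 0.771 ± 0.304 CPM ipsilaterally (SD, n = 8) and was higher on the lesioned side in 8 of 8 mice, although D1 had 3 counts on each side and differed by library size alone. Its log2 change of 1.55 ± 0.39 (adjusted p = 0.0394) was not called with the mouse as a block (adjusted p = 0.058) and passed without only 1 of the 8 mice, D1. Tlr4, the lipopolysaccharide receptor, ranged from 0.943 to 3.02 CPM ipsilaterally and from 0.749 to 2.14 CPM contralaterally, with 5 of 8 mice higher on the lesioned side and a log2 change of 0.55 ± 0.31 (adjusted p = 0.469).

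Cd14, which hands lipopolysaccharide to TLR4 and also assists other TLRs, was measured at 9.84, 19.4, 7.96 and 29.6 CPM in the ipsilateral tissue of CTL mice and at 2.3, 2.46, 2.58 and 2.03 CPM contralaterally. In BLZ945 mice it was 28.4, 15.2, 8.51 and 36.4 CPM against 2.04, 2.51, 3.35 and 3.28 CPM. The 8 ipsilateral libraries did not overlap with the 8 contralateral ones, and they differed among themselves from 7.96 to 36.4 CPM while the contralateral ones stayed between 2.03 and 3.35 CPM. The averaged log2 change was 2.90 ± 0.32 (adjusted p = 3.27e-05) and was called without any 1 mouse. Cd14 is expressed by monocytes, macrophages and neutrophils alike. Neutrophil markers (15 genes, 8 of which passed the filter) summed to 6.64 to 9.8 CPM contralaterally and 7.81 to 13.3 CPM ipsilaterally, with 2 genes called higher, and Stfa2l1 was at 0 in every tissue library. Monocyte markers (10 genes) summed to 97.5 to 232 CPM against 93.5 to 375 CPM, with 2 genes called higher. Only 3 of these 10 had a mean of at least 1 CPM in tissue, and Ly6c2 was at 0 to 0.3 CPM, so this sum rests on few genes. Macrophage genes summed to 506 to 626 CPM against 586 to 735 CPM, with 10 of 18 called higher. Their part in the change of Cd14 was not tested.

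Of the endosomal receptors, Tlr13 was measured at 4.37, 6.09, 7.87 and 6.18 CPM in the ipsilateral tissue of CTL mice against 2.06, 2.89, 5.47 and 3.88 CPM, and at 8.5, 8.92, 3.26 and 9.79 CPM against 2.79, 3.66, 2.51 and 1.4 CPM in BLZ945 mice. All 8 mice were higher on the lesioned side, but the groups overlapped. Its log2 change was 1.17 ± 0.25 (adjusted p = 0.0135). Tlr7 ranged from 4.53 to 7.75 CPM ipsilaterally and 2.7 to 5.86 CPM contralaterally, also higher in 8 of 8 mice (0.69 ± 0.17, adjusted p = 0.0283). The call of Tlr13 was lost without A3, B1, C2 or D1, and that of Tlr7 without A2, A3, A4, C2, C3 or D1.

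Tlr3 and Tlr9 did not pass the test in tissue. Tlr3 was measured at 13.9 ± 2.2 CPM ipsilaterally and 13.7 ± 2.52 CPM contralaterally (SD, n = 8), a log2 change of 0.02 ± 0.12 (adjusted p = 0.979). Tlr9 was measured at 2.1 ± 0.494 CPM and 2.51 ± 0.929 CPM, a log2 change of -0.24 ± 0.23 (adjusted p = 0.73), and only 2 of 8 mice were higher on the lesioned side.

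The adaptor Myd88 was measured at 9.06, 9.52, 8.67 and 9.97 CPM in the ipsilateral tissue of CTL mice and at 6.42, 4.08, 5.98 and 5.83 CPM contralaterally. In BLZ945 mice it was 13, 11.2, 10.1 and 9.39 CPM against 5.46, 3.66, 5.02 and 8.33 CPM. As for Cd14, every ipsilateral library was above every contralateral one, although D1 differed by little. The log2 change was 0.85 ± 0.15 (adjusted p = 0.00259) and was called without any 1 mouse.

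Within CTL mice alone, 0.485% of genes were called higher and 0.00527% lower in ipsilateral tissue, and 2 members passed, Cd14 (2.83 ± 0.45, adjusted p = 0.00564) and Tlr1 (2.22 ± 0.44, adjusted p = 0.0301). With the mouse as a block Tlr2 passed as well (1.71, adjusted p = 0.00317). In the blocked fit Cd14, Tlr1 and Tlr2 (1.64 ± 0.35, adjusted p = 0.0317) also passed without A3, and none did with its hemispheres exchanged (Tlr2 0.79 ± 0.50, adjusted p = 1). Without A3 and without the block, neither Cd14 (adjusted p = 0.0775) nor Tlr1 (0.11) did. Cd14 also lost its call without B1, and Tlr1 without A2, A4 or B1. Within BLZ945 mice, 1.26% of genes were called higher and 0.1% lower, and 4 members passed: Cd14 (2.98 ± 0.45, adjusted p = 0.00188), Tlr2 (2.12 ± 0.45, adjusted p = 0.0216), Myd88 (0.96 ± 0.21, adjusted p = 0.0275) and Tlr13 (1.56 ± 0.36, adjusted p = 0.0395). Without any 1 mouse Cd14 kept its call in BLZ945 mice, whereas Tlr2 lost it without C2, C3 or D1, Myd88 without B1, C2, C3 or C4, and Tlr13 without A3, B1, C2, C3 or D1.

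In sdCAMs, 6 of 10 members were higher in the ipsilateral hemisphere in the average of both treatments and none was lower: Tlr13 (2.48-fold), Tlr2 (2.18-fold), Tlr1 (2.11-fold), Tlr4 (1.99-fold), Tlr7 (1.9-fold) and Tlr3 (1.64-fold). Here 4.98% of the 18297 genes tested were called higher and 11.2% lower. The median log2 change was 0.84 over the members and -0.16 over all genes. The 4 members Tlr1, Tlr2, Tlr7 and Tlr13 passed in both compartments. Tlr3 and Tlr4 passed in sdCAMs alone, Cd14, Myd88 and Tlr6 in tissue alone, and Tlr9 in neither.

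**Figure D4:**
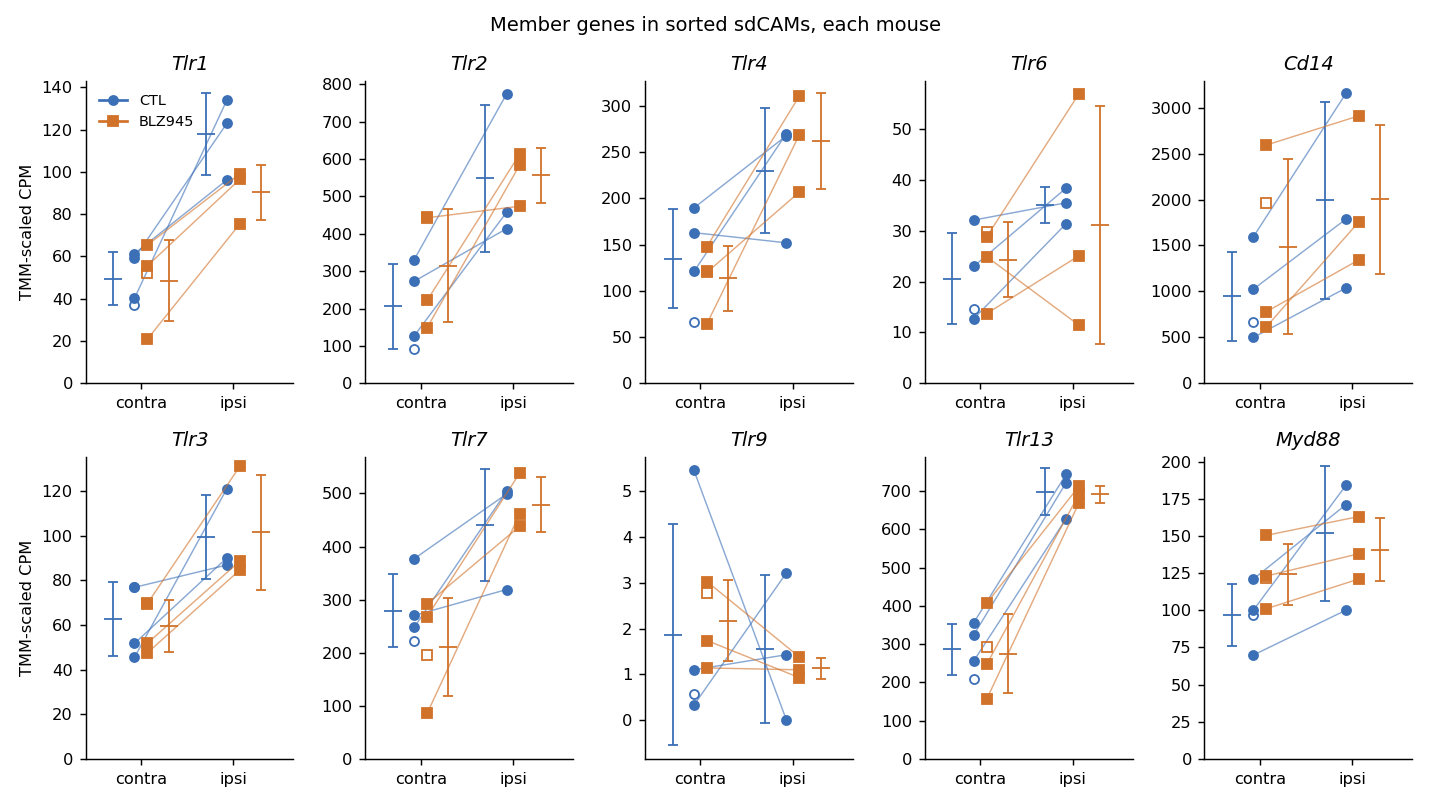
TMM-scaled CPM of each member in contralateral and ipsilateral sdCAMs, with 1 point per library, a line per mouse and mean ± SD at the side (CTL, blue circles, n = 4 contra and 3 ipsi; BLZ945, orange squares, n = 4 and 3); open symbols are contralateral libraries of A3 and C2, whose ipsilateral partners were left out. Tlr1, Tlr3 and Tlr13 are higher in every ipsilateral library than in any contralateral one.

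Tlr13, the receptor for bacterial ribosomal RNA, was measured at 722, 628 and 744 CPM in ipsilateral sdCAMs of A2, A4 and B1 and at 324, 208, 256 and 356 CPM contralaterally (A2, A3, A4 and B1). In BLZ945 mice it was 692, 669.9 and 713 CPM ipsilaterally (C3, C4 and D1) against 292, 247, 156 and 407 CPM (C2, C3, C4 and D1). The 6 ipsilateral libraries lay within 628 to 744 CPM, above all contralateral ones. The log2 change of 1.31 ± 0.18 (edgeR, adjusted p = 0.000343) was called without any 1 mouse.

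Tlr1 was measured at 96.2, 134 and 123 CPM in ipsilateral sdCAMs of CTL mice against 61.3, 37.2, 40.2 and 59.2 CPM, and at 96.5, 75.4 and 99.1 CPM in BLZ945 mice against 52, 55.6, 20.9 and 65.4 CPM. Its groups did not overlap, and the log2 change of 1.08 ± 0.22 (adjusted p = 0.00488) was called without any 1 mouse. Tlr2 was measured at 414, 458 and 775 CPM ipsilaterally in CTL mice against 273, 91.9, 127 and 331 CPM, and at 613, 584 and 474 CPM in BLZ945 mice against 444, 222, 149 and 443 CPM. All 6 mice with both libraries were higher on the lesioned side, D1 by little, and the log2 change of 1.12 ± 0.30 (adjusted p = 0.0216) lost its call without A4, C3 or C4.

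Tlr4 ranged from 152 to 311 CPM ipsilaterally and from 64.3 to 189.8 CPM contralaterally (0.99 ± 0.24, adjusted p = 0.0116), and A2 was lower on the lesioned side. Tlr7 ranged from 319 to 538 CPM against 85.9 to 377 CPM (0.92 ± 0.23, adjusted p = 0.0135). Tlr3 ranged from 84.6 to 131 CPM against 45.5 to 77.1 CPM, without overlap (0.71 ± 0.18, adjusted p = 0.0149). These calls depended on single mice: Tlr4 and Tlr7 were not called without A4, and Tlr3 not without A4 or C3.

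Cd14 in sdCAMs was measured at 1787, 1037 and 3156 CPM ipsilaterally in CTL mice against 1025, 664, 499 and 1596 CPM, and at 1757, 1343 and 2912 CPM in BLZ945 mice against 1959, 616, 779 and 2594 CPM. It was higher on the lesioned side in 6 of 6 mice, yet the groups overlapped, with contralateral values from 499 to 2594 CPM. Markers of other cells known to express Cd14 differed between these libraries too. In contralateral sdCAMs, monocyte markers summed to 221 to 391 CPM in CTL and 431 to 1263 CPM in BLZ945 mice, without overlap. Neutrophil markers there summed to 343 to 849 CPM in CTL and 285 to 3285 CPM in BLZ945 mice. Ipsilaterally both treatments together had 301 to 614 CPM of monocyte and 363 to 1519.6 CPM of neutrophil markers, and their part in the levels of Cd14 was not tested. The log2 change of 0.75 ± 0.36 did not pass (adjusted p = 0.167), and with the mouse as a block it was 0.88 and passed (adjusted p = 0.011). Myd88 was 146 ± 32.1 CPM (n = 6) against 110.5 ± 23.9 CPM (n = 8), higher in 6 of 6 mice (0.41 ± 0.17, adjusted p = 0.108). Tlr6 was 33.1 ± 15.1 CPM against 22.5 ± 7.81 CPM, higher in 5 of 6 mice (0.56 ± 0.34, adjusted p = 0.276). Tlr9 had 0 to 5.46 CPM, and its change of -0.60 ± 0.96 (adjusted p = 0.751) was not detectable at this depth.

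Within CTL mice, 0.426% of genes were called higher and 2.36% lower in ipsilateral sdCAMs, and Tlr13 (1.29 ± 0.26, adjusted p = 0.0175) and Tlr1 (1.25 ± 0.32, adjusted p = 0.0478) passed, the latter not with the mouse as a block (adjusted p = 0.111). Without A2, A3, A4 or B1 neither passed, and Tlr1 also not without C2, C3 or D1. Within BLZ945 mice, 1.2% were called higher and 4.41% lower, and Tlr13 (1.33 ± 0.26, adjusted p = 0.00944), Tlr7 (1.19 ± 0.32, adjusted p = 0.0439) and Tlr4 (1.21 ± 0.34, adjusted p = 0.0494) passed. Tlr13 lost this call without C3, Tlr7 without A4, C2, C3, C4 or D1, and Tlr4 without these or B1.

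Macrophage transcripts as a whole took a higher share of the ipsilateral sdCAM libraries, 3.88% to 4.94% against 1.6% to 4.14%. Scaled to these 18 genes, only Tlr13 was called higher in ipsilateral sdCAMs (0.62 ± 0.16, adjusted p = 0.009). The other log2 changes became 0.40 ± 0.19 for Tlr1, 0.47 ± 0.26 for Tlr2, 0.32 ± 0.21 for Tlr4, 0.24 ± 0.18 for Tlr7 and -0.05 ± 0.21 for Tlr3 (adjusted p = 0.106 to 0.915), while the median of all genes moved from -0.16 to -0.92. In tissue the same scaling left 6 members called, Cd14 (2.63 ± 0.29), Tlr2 (1.67 ± 0.31), Tlr1 (1.36 ± 0.32), Tlr6 (1.30 ± 0.40), Tlr13 (0.92 ± 0.23) and Myd88 (0.58 ± 0.17), with adjusted p between 2.25e-05 and 0.0192. Shares of all genes called under this scaling are not given here.

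**Figure D5:**
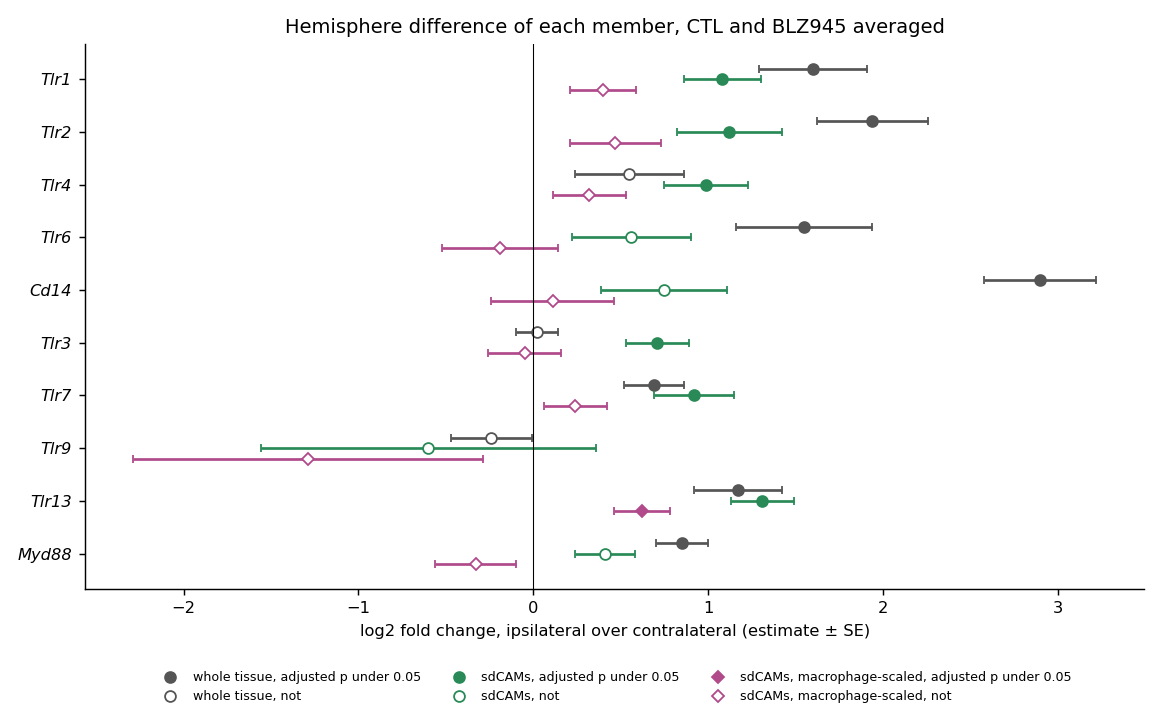
Log2 fold change (ipsilateral over contralateral, average of CTL and BLZ945, ± SE) of each member in whole tissue, in sdCAMs and in sdCAMs scaled to 18 macrophage genes, with filled symbols where the adjusted p is under 0.05. Cd14 has the highest value in tissue, and Tlr13 alone is filled in all 3 fits.

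The change between hemispheres was compared between the compartments in 1 fit, a contrast added after the values had been seen. There, 17.4% of the 19389 genes had a higher change in tissue than in sdCAMs and 3.18% a lower one. Cd14 and Tlr3 passed: Cd14 changed by 2.21 ± 0.53 more in tissue (log2, adjusted p = 0.0033) and Tlr3 less (difference of -0.64 ± 0.22, adjusted p = 0.0423). The call of Cd14 held without any 1 mouse and with macrophage scaling (2.52 ± 0.51, adjusted p = 0.000599), but not with the hemispheres of A3 exchanged (1.25 ± 0.72, adjusted p = 0.253). The call of Tlr3 was lost without A4, B1, C2, C3, C4 or D1 and with macrophage scaling (-0.19 ± 0.25, adjusted p = 0.654). For the other 8 members the difference did not pass (adjusted p = 0.129 to 1), so that a call in 1 compartment alone is not shown to be particular to it.

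Whether repopulation altered TLR expression was asked with 3 contrasts per compartment, BLZ945 against CTL in each hemisphere and the difference of their stroke responses. No member passed in any of the 6 contrasts with edgeR, 0 had an unadjusted p under 0.05, and none was called in any of the 15 alternatives, DESeq2 and the mouse block included. Nor did any other gene pass: 0% of genes were called higher and 0% lower in each, with 386 to 1133 genes at an unadjusted p under 0.05, and DESeq2 called 0 to 38 genes higher and 0 to 90 lower. BLZ945 and CTL libraries overlapped for 10 of 10 members in each hemisphere of each compartment. The share of all genes that overlap is not given here, and overlap of groups this small does not show equal levels. In ipsilateral tissue, log2 differences ran from -0.66 for Tlr1 to 0.82 ± 0.41 for Tlr2 (edgeR, adjusted p = 0.958). Tlr2 was measured there at 9.31 ± 3.24 CPM in BLZ945 and 5.27 ± 2.78 CPM in CTL mice (SD, n = 4). In ipsilateral sdCAMs they ran from -0.45 for Tlr9 to 0.19 for Tlr4, in contralateral sdCAMs from -0.41 for Tlr7 to 0.65 for Cd14, and in contralateral tissue from -0.46 for Tlr13 to 0.56 for Tlr1. The stroke response in tissue differed most for Tlr1, which changed by 0.99 ± 0.44 in BLZ945 and 2.22 ± 0.44 in CTL mice (difference of -1.23 ± 0.62, unadjusted p = 0.0653 and adjusted p = 1, edgeR). The SE of BLZ945 against CTL was between 0.18 and 0.62 over the members in tissue and between 0.22 and 1.44 in sdCAMs. That of the difference in response was 0.25 to 0.80 in tissue and 0.34 to 1.90 in sdCAMs. Differences well above the SE, as for Tlr2 in ipsilateral tissue, did not pass either. Treatment differences of that size can therefore have been missed with these libraries.

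The promoters of the members called in both compartments are printed because their start sites can be compared with the promoters of all genes. RefSeq (GRCm38.p6) gave an entry of 250 bases before to 50 after the start for 7 of the 10 members, and among the 4 called in both compartments for Tlr1 (2 starts), Tlr2 and Tlr13. The κB consensus, AP-1 (TGANTCA), the PU.1 core (GAGGAAG), the interferon response element (GAAA repeated after a gap of 2 bases) and the TATA box (TATAAA) were searched on both strands, and matches are in capitals.
Tlr2, chr3:83841559-83841858, minus strand: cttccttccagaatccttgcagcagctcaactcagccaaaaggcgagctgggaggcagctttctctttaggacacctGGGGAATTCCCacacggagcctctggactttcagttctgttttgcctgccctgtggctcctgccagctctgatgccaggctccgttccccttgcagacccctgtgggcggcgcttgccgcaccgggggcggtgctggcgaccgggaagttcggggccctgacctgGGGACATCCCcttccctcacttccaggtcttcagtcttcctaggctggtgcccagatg
Tlr13, chrX:106143025-106143324, plus strand: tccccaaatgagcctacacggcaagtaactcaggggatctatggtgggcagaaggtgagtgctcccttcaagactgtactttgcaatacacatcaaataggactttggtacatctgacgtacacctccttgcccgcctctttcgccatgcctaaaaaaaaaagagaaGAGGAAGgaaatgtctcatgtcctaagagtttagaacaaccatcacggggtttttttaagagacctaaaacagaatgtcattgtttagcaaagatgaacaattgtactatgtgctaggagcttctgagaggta
Tlr1, chr5:64933509-64933808, minus strand: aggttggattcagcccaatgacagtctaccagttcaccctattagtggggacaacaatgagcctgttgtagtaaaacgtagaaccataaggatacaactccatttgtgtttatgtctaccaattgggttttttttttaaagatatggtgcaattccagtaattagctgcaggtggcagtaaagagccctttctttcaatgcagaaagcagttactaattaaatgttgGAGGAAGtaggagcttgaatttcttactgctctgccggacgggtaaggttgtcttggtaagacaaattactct
Tlr1, chr5:64932650-64932949, minus strand: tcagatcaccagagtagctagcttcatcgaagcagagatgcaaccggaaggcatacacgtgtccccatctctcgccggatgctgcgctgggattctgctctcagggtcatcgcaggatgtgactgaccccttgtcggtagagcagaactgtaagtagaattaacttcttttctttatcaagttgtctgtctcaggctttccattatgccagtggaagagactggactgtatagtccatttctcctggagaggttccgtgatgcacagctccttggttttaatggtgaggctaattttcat
The Tlr2 window held the κB consensus 3 times, at -173 and -172, which overlap, and at -8 from the start, and 8.46% of 32851 promoters of this length hold at least 1. The Tlr13 window and the upstream of the Tlr1 windows each held the PU.1 core once, at -83 and -23, as do 13.6% of promoters, and the other Tlr1 window held none of the 5 motifs. Tlr3, which passed in sdCAMs, also held a κB match, at -211. Myd88 held an interferon response element at -40, and a Tlr6 window held it at -116 and -110, which overlap (3.44% of promoters hold one). Tlr9, called in neither compartment, held the PU.1 core at -112 and 12 and an AP-1 match at -58 (7.81%). The TATA box was matched in the other Tlr6 window and in Myd88 (13.6%). These are matches of letters and were not tested as binding sites.

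Around the members, 111 genes of the pathway in 9 lists were counted, of which 106 passed the filter in tissue and 110 in sdCAMs. In the tissue average 34 of 106 were called higher and none lower, where 2.53% of all genes were called higher and 0.517% lower, and the median log2 change was 0.40 against -0.01 for all genes. Target genes of TLR signaling had the highest share, 14 of 18 measured (median 3.27), led by the chemokines Ccl4 (7.08 ± 0.55) and Ccl2 (4.01 ± 0.50), the cytokine Il6 (4.60 ± 1.17) and the chemokines Cxcl1 (3.81 ± 0.70) and Ccl3 (3.77 ± 0.53). Of 12 genes of endogenous ligands 6 rose (median 1.17), led by Saa3 (4.86 ± 0.84), the neutrophil and monocyte protein S100a9 (3.70 ± 0.72), Hspa1a (2.49 ± 0.43), Tnc (1.60 ± 0.34) and Fn1 (0.91 ± 0.10). Of the transcription factors downstream 5 of 12 rose (median 0.51), the interferon factor Irf7 (1.14 ± 0.25), Cebpb and Nfkb2 (0.98 each), Jun (0.62 ± 0.14) and Irf8 (0.55 ± 0.12). Negative regulators rose in 3 of 18 cases (median 0.40), the cytokine-signaling inhibitor Socs3 (2.68 ± 0.27), Atf3 (2.42 ± 0.33) and Trim30a (0.91 ± 0.21). Among co-receptors and trafficking proteins 3 of 11 rose (median 0.19), Slc15a3, an endolysosomal transporter (2.21 ± 0.24), the TLR4-like receptor Cd180 (1.40 ± 0.18) and its partner Ly86 (0.70 ± 0.11). Of 19 adaptors and kinases 1 rose (median 0.07), Pik3ap1 (0.87 ± 0.18), while Tirap, Ticam1, Irak1 and Traf6 had log2 changes of 0.40, 0.24, 0.08 and 0.05 and did not pass. Of 9 endolysosomal nucleases and proteases 1 rose (Lgmn, 0.24 ± 0.06, median of the list 0.09), of 4 genes listed with related MyD88-using receptors 1 (Il1r1, 0.66 ± 0.16, median 0.71), and of 3 other TLRs none (median -0.44). The list of related receptors also holds Il33, which encodes a cytokine and not a receptor. Without A3, 26 of the 106 were called, and Il6 (adjusted p = 0.117), Tnc (0.0525), Jun (0.0615), Irf8 (0.0708), Trim30a (0.0545) and Lgmn (0.0923) of the genes named above were not. With the hemispheres of A3 exchanged, none of the 106 was called. The shares of all genes called in these fits are not given here.

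In the sdCAM average 19 of 110 pathway genes were called higher and 7 lower, where 4.98% of all genes were called higher and 11.2% lower, and the median log2 change was 0.32 against -0.16 for all genes. Slc15a3, Ly86, Pik3ap1 and Lgmn were called higher in both compartments. Endolysosomal proteases and nucleases, which cut the receptors or degrade their ligands, rose in 6 of 9 cases (median 0.64), with Ctsb (1.00 ± 0.18), Lgmn (0.81 ± 0.15), Ctsl (0.73 ± 0.18), Ctss (0.66 ± 0.17) and Pld3 (0.64 ± 0.16) leading. Of 11 co-receptors and trafficking proteins 5 rose (median 0.54), the scavenger receptor Cd36 (1.15 ± 0.32), Slc15a3 (1.00 ± 0.32), Unc93b1 (0.67 ± 0.19), the carrier of endosomal TLRs, and Ly86 (0.58 ± 0.18) among them, and Lbp, the lipopolysaccharide-binding protein, fell (-4.64 ± 0.91). Of the adaptors and kinases 3 of 19 rose (median 0.28), the TLR4 adaptor Ticam2 (1.33 ± 0.23), Pik3ap1 (1.15 ± 0.30) and Irak4 (1.08 ± 0.25). Rel (0.92 ± 0.30) and Irf5 (0.69 ± 0.19) rose among 12 transcription factors (median 0.35), Inpp5d (0.94 ± 0.19) among 18 negative regulators (median 0.40) and Tlr12 (1.04 ± 0.34) among 4 other TLRs (median 1.06). None of 20 target genes was called higher, and Nos2, the inducible nitric oxide synthase, was called lower (-6.19 ± 1.72), with a median of 0.08 over the list. A target gene that did not pass is not shown to be unchanged, and rises can have been missed with these libraries. Hspd1 (0.77 ± 0.16) rose and Bgn (-2.15 ± 0.52) and Hspa1a (-1.57 ± 0.50) fell among 12 ligands (median -0.31). The cytokine Il33 (-2.85 ± 0.72) and the receptors Il1r1 (-2.63 ± 0.58) and Il1rap (-0.94 ± 0.31) fell among the 5 genes listed with related MyD88-using receptors (median -0.94). Scaled to macrophage genes, none of the 9 endolysosomal genes and none of the 11 co-receptors and trafficking proteins was called higher. Markers of other cells were also called lower in the ipsilateral sdCAM libraries, in 7 of 7 endothelial genes (median log2 change of -4.26), 3 of 5 of choroid plexus epithelium (-4.36), 6 of 6 of oligodendrocytes (-2.60), 5 of 7 of astrocytes (-1.90), 3 of 8 of neurons (-1.83), 4 of 8 of fibroblasts and mural cells (-1.74) and 1 of 15 of neutrophils (-1.06), and their part in the falls was not tested.

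The signed difference between the changes of both compartments was tested in the joint fit. There 17.4% of all genes had a higher change in tissue and 3.18% a lower one. It was called for 20 of 110 pathway genes toward tissue and 8 toward sdCAMs, with a median of 0.16 against 0.27 for all genes. For target genes the difference was toward tissue in 9 of 20 cases (median 2.75), led by Nos2 (6.92 ± 1.36), Ccl4 (6.39 ± 1.16), Il6 (4.69 ± 1.20), Il1b (3.97 ± 1.36) and Ccl2 (3.57 ± 1.03). For Nos2 this came with its fall in sdCAMs. In tissue without A3, Nos2 changed by 0.82 ± 0.44 and did not pass (edgeR, adjusted p = 0.479). Endolysosomal genes changed more in sdCAMs in 3 of 9 cases (median -0.51), Ctsb (-0.85 ± 0.18), Pld3 (-0.81 ± 0.19) and Lgmn (-0.51 ± 0.16). Without A3 these lists had 7 and 3 calls, with its hemispheres exchanged 3 and 5, and scaled to macrophage genes 13 and 1. For these alternatives the shares of all genes called are not given here.

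Across libraries, the member most like another was Tlr13 with Tlr1 in sdCAMs (Pearson r of log2 CPM of 0.93 over 14 libraries, 0.85 after the group means were removed) and Tlr2 with Myd88 in tissue (0.88 over 16 libraries, 0.58 within groups). Over the 45 pairs of members the median r was 0.54 in sdCAMs and 0.37 in tissue, and 0.33 and -0.01 within groups, where libraries of a mouse share its RNA and all share depth and scaling. The gene most like Tlr13 in sdCAMs was Lyn, a kinase (r = 0.98), with Ctsb and Atp6ap1 next, and Tlr7 was closest to Rps6ka1, Dnm2 and Unc93b1 (0.97 to 0.98). Tlr4 was closest to F13a1, a border macrophage marker, Galnt1 and Myo1f in sdCAMs (0.96 to 0.98). In tissue, where Tlr4 had 8 to 32 counts per library, it was closest to Lyve1, another such marker (0.82), Larp4b (0.80) and Nup98 (0.76). For these nearest genes, r within groups is not given. Tlr2 was closest to Jak1, Msn and Itgam in sdCAMs (0.95 to 0.96) and to Slc15a3, Parp14 and Cyba in tissue (0.94). Cd14 was closest to Csf2rb, Ccl9 and Socs3 in sdCAMs (0.93) and to Il1rn, Lilrb4b and Mmp12 in tissue (0.96 to 0.97). Tlr1 was closest to Cyth4, Inpp5d and Uba6 in sdCAMs (0.95 to 0.96), and Myd88 to Slc39a14, Tubb6 and Ccl12 (0.90 to 0.91). Tlr3, Tlr6 and Tlr9 had no gene above 0.90 in sdCAMs or 0.87 in tissue.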

How the data were processed

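The files hold counts per gene, which the authors deposited without normalization. Per the labels and the study's methods, libraries were made with a SMARTer v4 and Nextera XT kit that does not mark strand, sequenced as single reads, demultiplexed with bcl2fastq 2.20, aligned with STAR 2.7.11a and counted with featureCounts 2.0.8. The methods name both mm10 and GRCm39, so the build is not settled, and coordinates here are those of GRCm38 (GENCODE M21 and RefSeq), matched by gene symbol.

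All genes of a compartment whose summed count was at least 0.5 times the number of libraries were fitted together, with TMM scaling, 1 mean per group of treatment and hemisphere and no covariate, by edgeR's quasi-likelihood test (edgeR 4.0.16, limma 3.58.1, R 4.3.3). Calls are p-values under 0.05 after Benjamini-Hochberg adjustment over all genes tested. SEs were taken from the F statistic. Sorted and whole tissue libraries were compared in 1 joint fit. The scripts were tested on simulated data. Levels per kb used exon lengths, and levels of neighboring members were compared by exact sign-flip tests. The genes most like a member were the 3 with the highest Pearson r of log2 CPM among genes of at least 1 CPM on average. Alternatives were other size factors, DESeq2 1.42.0, other filters, a fold threshold (log2 of 0.59), the mouse as a block, leaving out each mouse, all 16 sdCAM libraries, scaling to 18 macrophage genes (Ptprc and Itgam, which encode sorted antigens, among them) and exchanging the hemispheres of A3.

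Both hemispheres and both kinds of library of a mouse come from 1 animal. Residuals of the hemispheres of a mouse correlated with a median r of 0.433 in tissue (0.201 to 0.663, 8 mice) and 0.153 in sdCAMs (0.0651 to 0.255, 6 mice), against -0.133 and -0.055 between mice. Removing the means of groups this small ties the values between mice to those within a mouse, so they are no independent reference. Each mouse is 1 replicate. The members and lists were chosen with earlier results of these data known. All members are reported, and of each pathway list at most the 5 called genes with the largest log2 change, plus partners of the members.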

Additional observations from a re-analysis of the deposited data

Results flagged for a closer look

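In ipsilateral tissue of BLZ945 mice, Tlr2 was 4.52 CPM in C4, apart from the other 3 mice at 10.5 to 11.7 CPM (the gap to the nearest was 0.83 of the range). In contralateral sdCAMs of CTL mice, Tlr9 was 5.46 CPM in A2, while the other 3 had 0.328 to 1.1 CPM (0.85 of the range), and the ipsilateral library of A2 had 0 counts. These were the 2 groups of 60 tested in which a single library stood apart by Dixon's test, and chance gives about 1 in 20.

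The change between hemispheres differed between tissue and sdCAMs for Cd14, by 2.21 ± 0.53 on the log2 scale (edgeR, adjusted p = 0.0033), and for Tlr3, by -0.64 ± 0.22 (adjusted p = 0.0423). Some markers of monocytes, neutrophils and macrophages were also called higher in tissue, and their part was not tested.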

How the results depend on the processing

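After exchanging the A3 hemispheres to follow the column names, 0 members were called higher in tissue in CTL (main result 2), BLZ945 (4) and the average (7), and 0 had a higher change in tissue than in sdCAMs (1). With the mouse as a replicate block in addition, the exchange gave 0, 1 and 1 members in these 3 tissue comparisons, and leaving A3 out gave 3, 4 and 6 (fits chosen after seeing the data). With all 16 sdCAM libraries, the degraded ones included, 0 were called higher in sdCAMs in CTL (2), BLZ945 (3) and the average (6), and 0 changed less in tissue than in sdCAMs (1). DESeq2 called 4 members in tissue of CTL mice (2). The shares of all genes called under these alternatives and those below are not given here, so such counts cannot be set against all genes.

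Scaling to macrophage genes gave 1 member in tissue of CTL mice (2), 0 in sdCAMs of CTL (2) and BLZ945 mice (3) and 1 in their average (6). It gave 5 members higher and 3 lower in sdCAMs than in tissue contralaterally (9 and 0), 2 and 3 ipsilaterally (9 and 0), and 3 with a higher and 0 with a lower change in tissue than in sdCAMs (1 and 1). It turned the direction of Tlr3 in the sdCAM average (-0.05), of Tlr3 (-3.49) and Myd88 (-1.36) in sdCAMs against contralateral tissue, and of Tlr1 (-0.06), Tlr3 (-3.30), Tlr6 (-0.75) and Myd88 (-2.27) against ipsilateral tissue. The causes were not tested, and the shares of all genes called under this scaling are not given here.

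With the mouse as a replicate block, 1 member was called in sdCAMs of CTL mice (2, Tlr1 lost), Tlr2 was added in tissue of CTL mice, Tlr6 was lost in the tissue average and Cd14 was added in the sdCAM average, and the block changed no other call of a member. Leaving out each mouse in turn, the count of members called higher was 0 to 2 in tissue of CTL, 1 to 4 of BLZ945 and 4 to 6 in the average, 0 to 2 in sdCAMs of CTL, 0 to 3 of BLZ945 and 2 to 6 in the average. In sdCAMs against tissue it was 9 in every fit with 0 to 1 lower, and 1 member had a higher and 0 to 1 a lower change in tissue than in sdCAMs. The sdCAM average fell to 2 without A4 and to 4 without C3, and the tissue average to 4 without A3 or C2. No member was called for BLZ945 against CTL or their difference in response under any alternative.

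The groups hold 3 or 4 mice. Tlr6 in tissue and Tlr9 in sdCAMs rest on few counts (7 of 16 and 2 of 14 libraries at 3 counts or fewer). Marker sums of other cell types differed between the hemispheres of sdCAM libraries, the label conflict of A3 is unresolved, and neither unoperated nor sham-operated mice were analysed here.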
